A study of Zea mays with 4 samples.

Results

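The PIP1 plasma membrane aquaporins of maize were described as the probe sets whose single platform gene symbol, or a RefSeq synonym of it, starts with PIP1. This gave 8 probe sets for 4 genes, out of 17621 maize probe sets, of which 1452 have 1 gene symbol and stand for 1108 genes. The genes are PIP1-1 (LOC542434, 1 probe set), pip1-2 (LOC541779, 1 probe set), PIP1-3 (LOC541886, 5 probe sets) and PIP1-5 (LOC542014, 1 probe set, matched by its synonym). The RefSeq table lists PIP1-3 and PIP1-4 as names of 1 gene, so both are covered by the PIP1-3 values. The name rule itself uses no measured value, but the members and the lists below were chosen with earlier results of these data known.

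The values come from 4 Affymetrix maize arrays, 2 for each of the lines Cm489 and F98908, hybridised with labelled cRNA (20 ug) made from total RNA in work on the maize cell wall, and the labels name no treatment. All plants were 21 days old and had 7 leaves, from compost at 50% humidity in a cycle of 16 h light and 8 h dark. The tissue label reads aerial and is no more precise. No label tells whether the 2 arrays of a line stem from different plants, so p-values cover the spread between these arrays, which may be technical. For Cm489 the labels give an extract per array (177 and 170 ug), but both F98908 arrays carry 1 and the same extract label (213 ug).

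Aquaporins are membrane channels that let water, and in some members small solutes, cross a bilayer down its gradient. The plasma membrane family of plants has a PIP1 and a PIP2 branch. In maize, PIP1 proteins made alone stay largely inside the cell and give little water flow in frog oocytes, whereas PIP1 and PIP2 proteins made together assemble, reach the plasma membrane and give more. Some PIP1 proteins of plants have also been tied to the passage of carbon dioxide in leaves.

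PIP1-3 was higher in F98908 and pip1-2 was lower, by a margin at the edge of the threshold, while PIP1-1 and PIP1-5 did not pass the test. On 4 probe sets PIP1-3 rose 2.08-fold to 2.26-fold in F98908. The fall of pip1-2 was 1.47-fold. Of the 7 PIP1 probe sets that were bright enough to be tested, limma called 5 at an adjusted p under 0.05, against 15.3% of all 11263 tested probe sets. In these 7, 4 were higher (7.27% of all tested) and 1 was lower (8.02%). The 4 higher ones belong to PIP1-3 alone and share its sequence, so by gene the count was 1 higher, 1 lower and 2 not called out of 4.

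**Figure D1:**
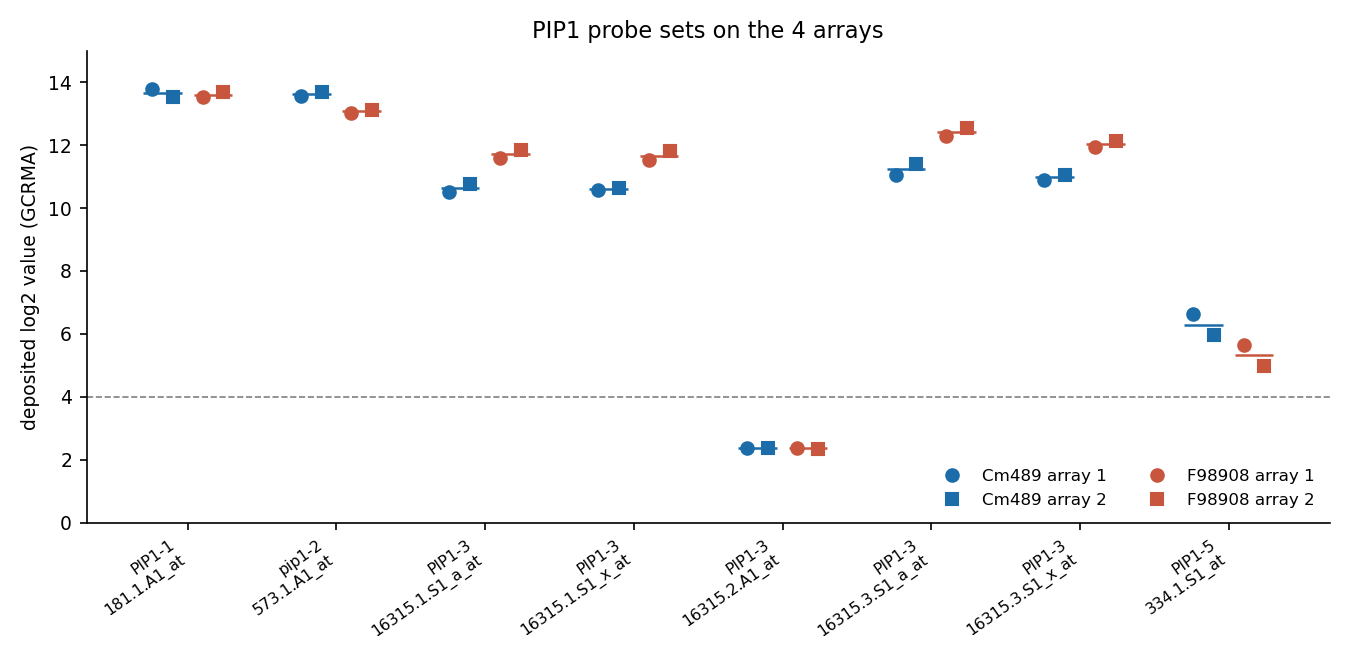
Deposited log2 values (y axis) of the 8 PIP1 probe sets (x axis, gene above the probe set number) on each of the 4 arrays. Blue is Cm489 and red is F98908, circles are array 1 and squares array 2, horizontal lines are the line means, and the dashed line marks log2 4, the limit used for testing. The 4 bright PIP1-3 probe sets have both F98908 arrays above both Cm489 arrays, and the fifth lies near log2 2.37 on all arrays.

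PIP1-3, the gene with the most probe sets, was read by 4 bright probe sets made from 2 target sequences. On Zm.16315.3.S1_a_at the log2 values were 11.06 and 11.40 in Cm489 and 12.28 and 12.53 in F98908. Both F98908 arrays lay above both Cm489 arrays, and the line means were 11.23 ± 0.23 and 12.40 ± 0.18 (SD, n = 2 arrays per line). The difference, F98908 minus Cm489, was 1.17 ± 0.18 SE on the log2 scale (2.26-fold, 95% confidence interval 1.59 to 3.20, adjusted p = 0.0306).

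The other probe set of that target sequence, Zm.16315.3.S1_x_at, gave 10.90 and 11.05 in Cm489 and 11.93 and 12.13 in F98908. Its lines did not overlap either, with a difference of 1.05 ± 0.13 SE (2.08-fold, adjusted p = 0.0207). The second target sequence was read by Zm.16315.1.S1_a_at, with 10.50 and 10.77 in Cm489 and 11.59 and 11.84 in F98908 (difference 1.08 ± 0.16 SE, adjusted p = 0.0304). It was also read by Zm.16315.1.S1_x_at, with 10.57 and 10.63 against 11.52 and 11.82 (difference 1.07 ± 0.14 SE, adjusted p = 0.0240). All 4 probe sets placed the F98908 arrays above the Cm489 arrays, but they are named for 1 gene and read the same RNA, so they are not 4 tests of it.

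The array's maker marks probe sets that match several transcripts of a gene with a in the name and those with probes that may match other genes with x. All 4 carry such a mark, and what related PIP transcripts add to their values was not tested. The PIP1-3 probe set with neither mark, Zm.16315.2.A1_at, stood at 2.37 and 2.38 in Cm489 and 2.37 and 2.35 in F98908. It was below log2 4 on every array, was not tested, and gives no fold. The rise of PIP1-3 thus has no reading from an unmarked probe set.

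The gene pip1-2, whose product raises water flow in oocytes when made together with PIP2 proteins, had log2 values of 13.57 and 13.69 in Cm489 and 13.03 and 13.11 in F98908. Both F98908 arrays were lower, with means of 13.63 ± 0.09 and 13.07 ± 0.05 (SD, n = 2 arrays per line). The difference was -0.56 ± 0.11 SE, or 1.47-fold lower in F98908 (limma, adjusted p = 0.0499). This value lies just inside the threshold, and 12 of 14 other ways of processing put it just or well outside, at adjusted p-values up to 0.280.

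PIP1-1, another widely expressed maize member, gave 13.77 and 13.52 in Cm489 and 13.52 and 13.68 in F98908. The arrays of the lines overlapped, and the difference of -0.04 ± 0.14 SE did not pass (adjusted p = 0.872). Its 95% confidence interval ran from -0.45 to 0.37 on the log2 scale, so a change of up to 1.29-fold upward or a fall to 0.731 of the Cm489 level lies within the error. The sign of this difference was set by single arrays, since it was 0.09 without Cm489 array 1 and 0.04 without F98908 array 1.

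PIP1-5, best known from maize roots, was read at 6.62 and 5.95 in Cm489 and at 5.65 and 4.99 in F98908. The F98908 arrays were the lower ones, but the arrays within each line lay 0.67 and 0.66 apart, the widest gap of the PIP1 probe sets in either line. The difference of -0.97 ± 0.36 SE did not pass (adjusted p = 0.166), with a 95% confidence interval from -1.98 to 0.04.

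Over the 7 tested probe sets, 6 had arrays that did not overlap between the lines, against 63.9% of all tested probe sets. At least 2-fold differences were seen on the 4 PIP1-3 probe sets, against 14.8% of all tested. Between 1382 and 1573 other tested probe sets differed by more than a PIP1-3 probe set did, and 3216 differed by more than pip1-2. With the brightest tested probe set of each gene, the median difference of the 4 genes was -0.30, beside -0.03 over all tested probe sets, and the median absolute difference was 0.76 beside 0.29.

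**Figure D2:**
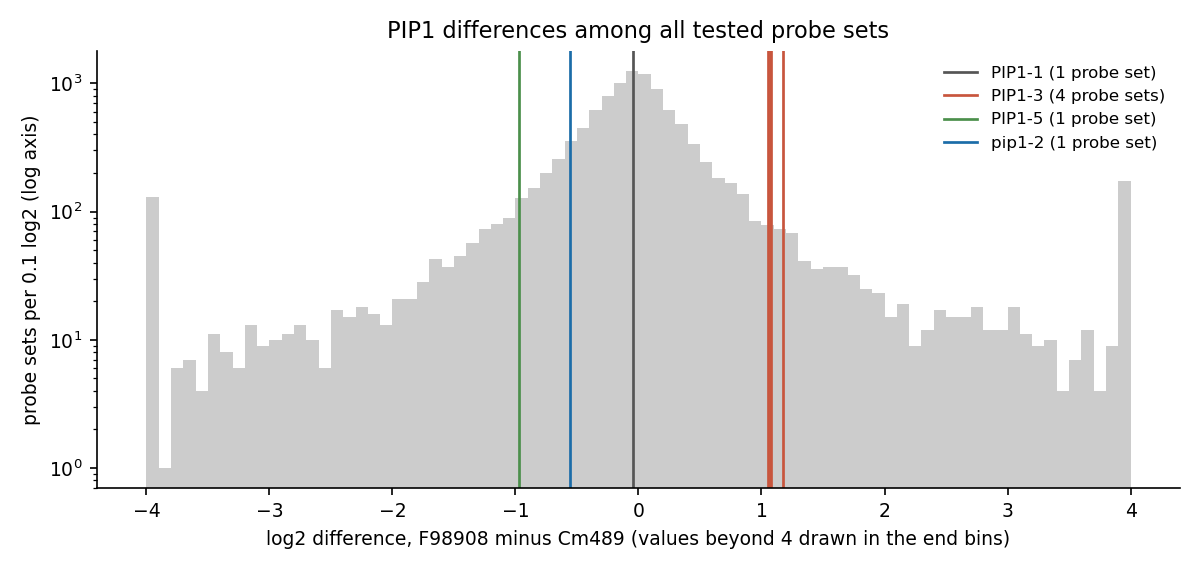
Number of tested probe sets (y axis, log scale) by log2 difference, F98908 minus Cm489 (x axis, in steps of 0.1, with values beyond 4 in the end bars). Vertical lines mark the 7 tested PIP1 probe sets; PIP1-1 lies at the centre, pip1-2 and PIP1-5 to the left, and the 4 PIP1-3 lines together between 1.05 and 1.17.

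The called members PIP1-3 and pip1-2 differed in opposite directions. Within each array, the log2 ratio of PIP1-3 to pip1-2 shifted by 1.73 from Cm489 to F98908, and that of PIP1-3 to PIP1-1 by 1.22 in the same direction. An exact two-sided permutation test of 2 arrays against 2 cannot go below p = 0.333, and 5 of the 6 pairs of genes reached that value (adjusted over the 6 pairs, p = 0.4), so this design cannot show that the genes responded differently by that test. The exception was PIP1-5 against pip1-2, with a shift of -0.41 (exact permutation p = 0.667).

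For PIP1-3 the gap between the lines was wider than that between the arrays of a line, which ran from 0.06 to 0.33 over its 4 bright probe sets. The median absolute difference between the arrays of a line over the 7 tested PIP1 probe sets was 0.255 in Cm489 and 0.246 in F98908. Over all tested probe sets it was 0.206 and 0.131.

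The common extract label of the F98908 arrays was allowed for by averaging them into 1 sample. The spread then comes from the Cm489 arrays alone, and the single F98908 sample is assumed to vary like them. Limma then called 0 of the 7 PIP1 probe sets, beside 3.71% of all tested ones, although 4 of the 7 had an unadjusted p below 0.05. The PIP1-3 differences were unaltered in size, with adjusted p-values from 0.113 to 0.165. With any single array left out no PIP1 probe set was called, and the PIP1-3 differences ran from 0.92 to 1.34. The direction of the PIP1-3 rise could not change in these runs, since both F98908 arrays lay above both Cm489 arrays. The arrays of the lines did not overlap for 63.9% of all tested probe sets either. Averaging arrays likewise leaves a difference of line means as it was. The call of PIP1-3 was lost without each array in turn.

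**Figure D3:**
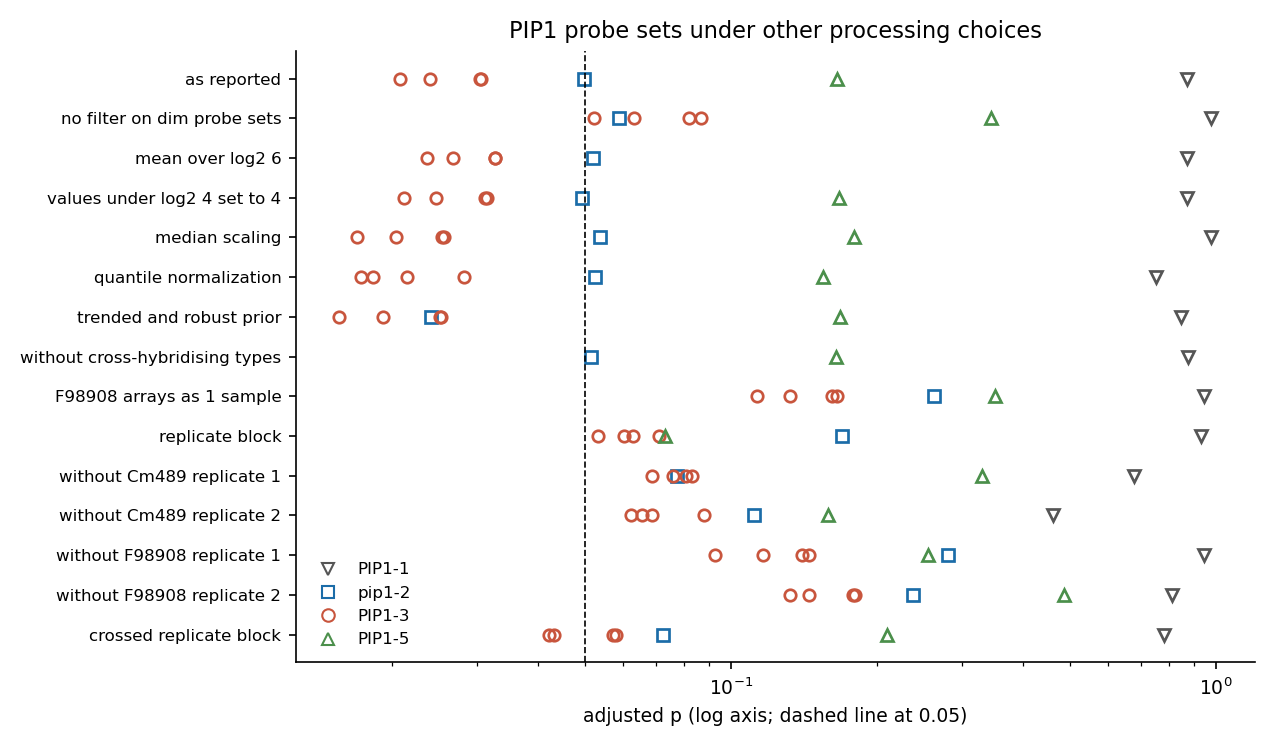
Adjusted p (x axis, log scale, dashed line at 0.05) of each tested PIP1 probe set under the processing as reported and under 14 others (y axis). Circles are the 4 PIP1-3 probe sets, squares pip1-2, upward triangles PIP1-5 and downward triangles PIP1-1; all 4 circles lie left of the line in 6 rows, 2 do so under the crossed block, and none does with no filter on dim probe sets, with the F98908 arrays as 1 sample, with the replicate block or with an array left out.

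Other aquaporins were set beside the PIP1 genes with the same fit. Limma called 7 of their 21 tested probe sets, against 15.3% of all tested. In F98908, 2 were higher (against 7.27%) and 5 lower (against 8.02%). The higher ones include TIP1-2, which passed the filter on dim probe sets through its F98908 arrays alone. The median difference of the 21 was -0.76, beside -0.03 over all tested probe sets. The PIP2 genes, whose proteins carry PIP1 proteins to the plasma membrane, had 6 tested probe sets, 2 lower and 4 not called. By gene, on the brightest probe set of each, 2 were lower and 3 not called. Of these, pip2b fell by 1.85 (adjusted p = 0.0136), from 10.68 and 10.40 in Cm489 to 8.51 and 8.88 in F98908. The gene pip2c fell by 1.17 on its bright probe set (adjusted p = 0.0263) with -0.37 on its dim one (adjusted p = 0.315). Both called PIP2 probe sets are of the types that may match more than 1 transcript. With no filter on dim probe sets limma called neither (adjusted p = 0.0531 for pip2b and 0.0738 for pip2c). Neither was called with any single array left out. The PIP2 gene pip2-5 ran the other way without a call, at least 2.14-fold. It was at 3.89 and 3.92 in Cm489, under log2 4, and at 4.61 and 5.58 in F98908. As it passed the filter on dim probe sets through its F98908 arrays alone, its adjusted p of 0.120 is no independent support. The brightest PIP2 probe set, that of PIP2-1, an efficient water channel, had a difference of -0.76 (adjusted p = 0.0535). No PIP2 probe set was called higher. The difference between the PIP1 and PIP2 branches was not tested.

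Among the vacuolar membrane aquaporins, 1 probe set of 6 tested was called, that of TIP1-2. It was at 2.50 and 2.51 in Cm489, under log2 4, and had a mean of 5.57 in F98908, at least 2.97-fold higher. TIP1-2 passed the filter on dim probe sets through its F98908 arrays alone, so its adjusted p of 0.0140 is no independent support for the difference. Raising all values below log2 4 to 4 ended its call (adjusted p = 0.0567), as did dropping the filter (adjusted p = 0.0611) and leaving out either Cm489 array (adjusted p = 0.0704 and 0.0784). The brightest TIP probe set, of TIP1-1, had a difference of -0.33 (adjusted p = 0.108). In the NIP branch, NIP2-3 rose by 2.33 (adjusted p = 0.00280) and stayed called under each alternative run (adjusted p up to 0.0402). NIP3-1 was lower, with 9.40 and 10.30 in Cm489 against 7.84 and 7.87 (adjusted p = 0.0393). It was not called with no filter on dim probe sets (adjusted p = 0.119). NIP1-1, the brightest by mean, had a difference of -1.36 with Cm489 arrays at 11.73 and 9.29 (adjusted p = 0.377). In the SIP branch of internal membranes, SIP1-2 fell by 1.73 (adjusted p = 0.0134) and SIP2-1 by 0.67 (adjusted p = 0.0477). With no filter on dim probe sets limma called neither SIP1-2 (adjusted p = 0.0508) nor SIP2-1 (adjusted p = 0.0855). Neither was called with any single array left out. SIP2-1 was also not called with median scaling (adjusted p = 0.0505) or quantile normalization (adjusted p = 0.0532). SIP1-1, the brightest, had a difference of 0.08 (adjusted p = 0.866). With the F98908 arrays as 1 sample none of the 5 lower probe sets was called.

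**Figure D4:**
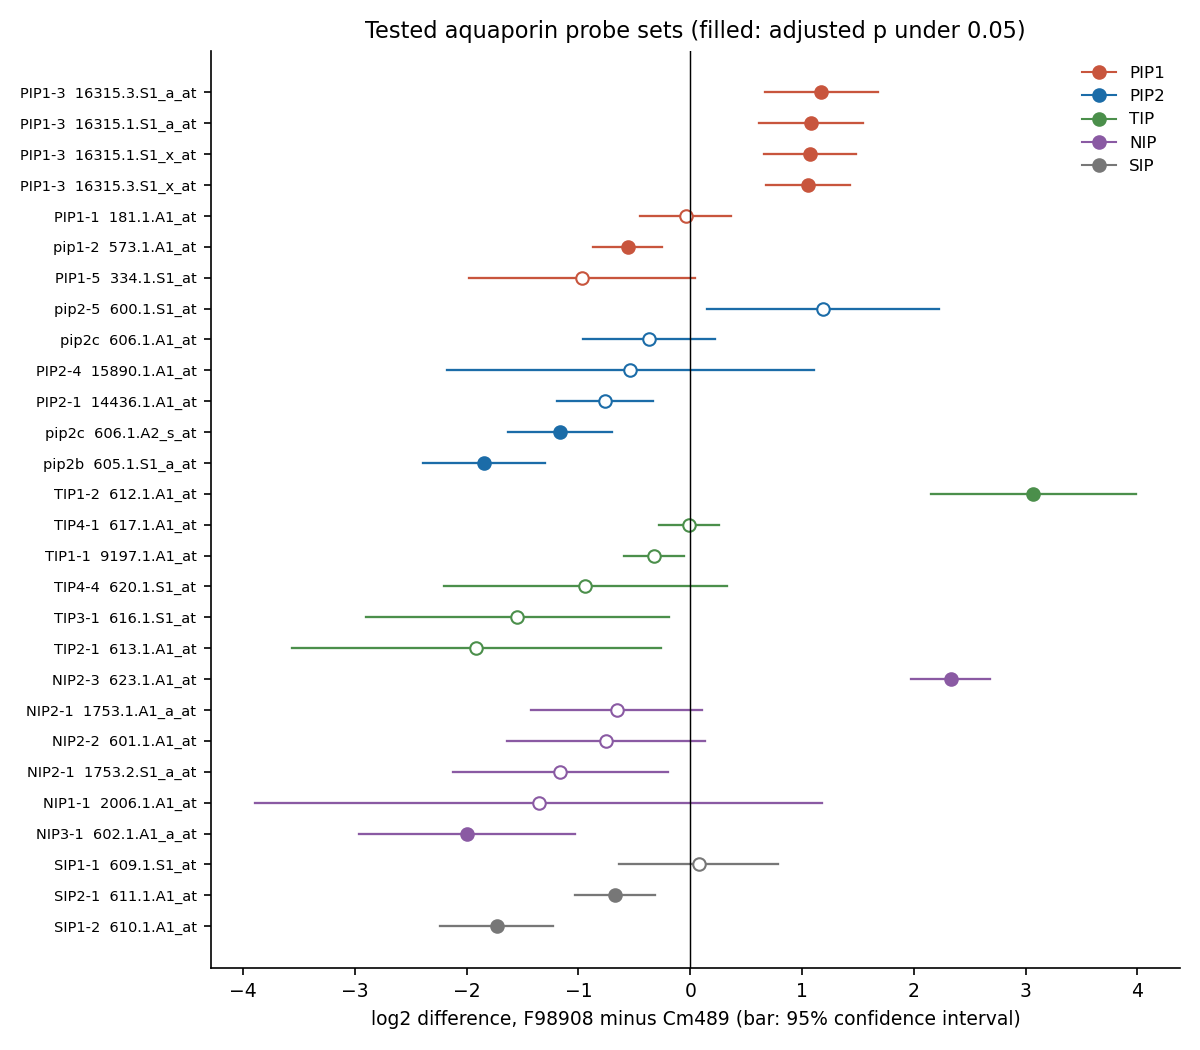
Log2 difference, F98908 minus Cm489 (x axis), with its 95% confidence interval for each tested probe set of the PIP1, PIP2, TIP, NIP and SIP branches (y axis, coloured by branch). Filled points have an adjusted p under 0.05; the 4 PIP1-3 probe sets, TIP1-2 and NIP2-3 are the filled points right of 0, and pip1-2 lies left of it.

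Genes of water balance and of the proton pumps that energise the plasma membrane gave 4 called probe sets out of 8 tested, against 15.3% of all tested, each higher in F98908 (against 7.27%). The dehydrin gene dehydrin3 (LOC542251) holds 3 of these. It is of a family of proteins that accumulate in drying cells, and had differences of 1.33, 1.86 and 2.63 (adjusted p = 0.00852, 0.00811 and 0.0116), on probe sets that all carry the a or x mark. The fourth is mha4, a plasma membrane proton pump, at 9.67 and 9.80 in Cm489 and 10.55 and 10.51 in F98908 (difference 0.80, adjusted p = 0.0229). None of the 4 was called with the F98908 arrays as 1 sample or without either F98908 array. The call of mha4 was also lost without either Cm489 array. The median difference of the 8 tested probe sets was 1.06, beside -0.03 over all tested ones, and it counts dehydrin3 3 times. Limma did not call mha1 (difference 0.74), vp9 (-0.29) or the probe sets of aba1 (0.24 and 6.05). The larger aba1 difference rests on Cm489 arrays at 2.33 and 11.13. No symbol of the list matched carbonic anhydrase or the trafficking genes, and vp1, vp14 and dhn1 were below the limit for testing.

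The genes whose log2 values, centred on their own mean, lay nearest to those of each PIP1 gene over the 4 arrays were taken from 848 to 851 named probe sets, as a description with no test. Nearest to PIP1-3 were GBSSIIa, a granule-bound starch synthase (distance 0.214), MNB1a, a Dof zinc finger factor (0.224), and mbd106, a methyl-CpG-binding domain gene (0.226). For pip1-2 they were nfd110 (0.0361), the fatty acid desaturase gene fad7 (0.0434) and the beta-tubulin gene tub6 (0.0791). For PIP1-1 they were CNX (0.0250), the phosphatidylinositol synthase gene PIS (0.0497) and csy1 (0.0534), and for PIP1-5 the glutathione transferase gene gst28 (0.325) and the jasmonate synthesis genes opr7 (0.460) and aos1 (0.531). The median distance to all compared probe sets was 1.29, 0.69, 0.50 and 1.26 in the same order of PIP1 genes.

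Markers of cell types were read from the same arrays. Green leaf material was marked by the Rubisco small subunit gene rbcS, between 11.53 and 12.29 on the 4 arrays. On the mesophyll list, mdh6 lay between 8.9 and 9.9. PDK1, between 7.83 and 8.68, matched that list by symbol alone. It is a separate gene from C4ppdkZm1 and is not read here as a mesophyll marker. C4ppdkZm1 lay between 8.88 and 9.76 on its brightest probe set and at 1.70 on its dimmest. The C4 leaf gene pep1 was under log2 2 on 3 arrays and at 5.44 on Cm489 array 1. The bundle sheath gene ME1 was below log2 4 on all. Of the markers measured, limma called 0 of 6 probe sets of the mesophyll list, PDK1 included (3 at an unadjusted p under 0.05). It called 0 of 1 for bundle sheath (0 unadjusted) and 0 of 4 for the outer cell layer (0 unadjusted). It also called 0 of 2 for meristem (0 unadjusted) and 0 of 1 for kernel storage (1 unadjusted). The root list had zrp4 as its sole measured gene, at 10.99 and 10.78 in Cm489 and 3.13 and 2.48 in F98908. It passed the filter through the Cm489 arrays alone and is given as values, with no test. PIP1-3 ran the opposite way to zrp4, while pip1-2 and PIP1-5, the latter not called, ran the same way. With 2 lines each difference must run with or against that of zrp4, so these directions carry no information on tissue. The summed outer cell layer signal was at log2 10.25 and 6.51 on the 2 Cm489 arrays and 8.82 and 9.46 on the F98908 arrays. The part of these in the PIP1 values was not tested. In material of mixed cells, fewer cells of a type and less RNA per cell cannot be told apart.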

How the data were processed

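The authors deposited log2 values, 1 per probe set and array, for which the submitters' processing notes name GCRMA, with a version that is not given in the sources used here. This method subtracts a background estimated from probe sequence, gives all arrays the same distribution and combines the probes, so a difference in total RNA output is lost. Of 17734 probe sets, 113 array controls were left out. Testing required a log2 value above 4 on 2 or more of the 4 arrays, which 11263 probe sets met (63.9%). Array medians lay between log2 6.64 and 6.66 over the maize probe sets. The small number of arrays sets the precision.

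Lines were compared by limma (version 3.58.1, R 4.3.3) through lmFit and eBayes, two-sided and with no replicate block, on 1.79 prior and 2 residual degrees of freedom. P-values were adjusted by Benjamini-Hochberg over all tested probe sets. Where the dimmer line's mean lay under log2 4, the fold is "at least", from the brighter mean against log2 4. On simulated data of 11263 probe sets for this comparison, the fit recovered 0 of 50 changes of 0.5, 9 of 50 of 1, 27 of 50 of 2 and 42 of 50 of 4 log2 units. Far fewer probe sets were changed there than the 1722 called in the real data. With fewer changes the Benjamini-Hochberg adjustment asks for smaller p-values. These counts are therefore not detection rates for the real comparison. Gene names came from the platform annotation and the RefSeq table of Zm-B73-REFERENCE-NAM-5.0. The members and lists were chosen with earlier results of these data known. Named were all PIP1 probe sets, called members and the brightest of each other branch, called water balance genes, and the 3 nearest named probe sets by Euclidean distance. No sequence or position is given. The gene sip1 (LOC542299) matched the SIP pattern by name and was too dim to be tested. Alternatives changed the filter, floor, scaling, prior, probe set types, replicate block and arrays used.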

Additional observations from a re-analysis of the deposited data

How the results depend on the processing

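With values under log2 4 set to 4, or with a trended and robust prior, all 7 tested PIP1 probe sets kept their side of the threshold. PIP1-3 also kept its calls with a mean over log2 6, median scaling or quantile normalization, where 4 PIP1 probe sets were called and pip1-2 was not (adjusted p = 0.0520, 0.0537 and 0.0525). Limma called 0 PIP1 probe sets with no filter on dim probe sets (5 at an unadjusted p under 0.05), which adds tests and also refits the spread, 0 without the cross-hybridising types (1 unadjusted), which leave PIP1-3 out, 0 with the F98908 arrays as 1 sample (4 unadjusted) and 0 with each array left out (0 to 0; 5 to 6 unadjusted). With single arrays left out the PIP1-1 difference ran from -0.1693 to 0.0859, and it was positive without Cm489 array 1 (0.0859) and without F98908 array 1 (0.0386). Every other tested PIP1 difference kept its sign under all alternatives run. With single arrays left out this was fixed in advance, since the arrays of the lines did not overlap on those probe sets.

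The array numbers are not known to pair samples: same-numbered arrays deviated with a correlation of -0.365. With the array number as a replicate block, 0 PIP1 (6 unadjusted), 3 other aquaporin and 780 of all tested probe sets were called. With the crossed pairing, chosen after seeing the data, 2 PIP1 probe sets were called.

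Over all tested probe sets 1130 were called with a mean over log2 6, 418 with F98908 as 1 sample and 433 to 1079 with an array left out, against 1722. Of the other aquaporins, 2 were called with no filter, 4 without cross-hybridising types, 2 with F98908 as 1 sample and 2 to 5 with an array left out, against 7. Of the water balance list, 1 was called without cross-hybridising types, against 4. None was called with F98908 as 1 sample or without either F98908 array. Runs without a Cm489 array did not keep all 4. Without Cm489 array 2, mha4 was not called, while an aba1 probe set entered (difference 10.45). That aba1 difference rests on Cm489 array 1 at 2.33. The cause was not tested except where stated.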
